A study of Homo sapiens with 6 samples.

Results

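The genes described here are the enzymes that attach palmitate to proteins or remove it again, together with GOLGA7, the accessory protein of a palmitoylating enzyme. They were picked by name: 24 acyltransferases of the ZDHHC family, 9 thioesterases and the accessory proteins GOLGA7 and GOLGA7B, 35 of the 23002 genes of the deposited table. The set was put together because GOLGA7 fell in sh-TRAF2 against sh-NC, so the members were selected on the same contrast that is described below. Their differences between the groups are therefore a description, and no p-value is given for a member. The cells were U251, an established human glioblastoma line. In the sh-NC group (3 samples) stably transduced cells carried a lentivirus with a control hairpin RNA, whose sequence is not given in the sources used here. In the sh-TRAF2 group (3 samples) stably transduced cells carried a lentivirus with a hairpin RNA against TRAF2. Both groups had thus been through lentiviral transduction and selection with puromycin. The 3 samples of a group are labelled as replicates, but whether they come from separate transductions, and which hairpin they carry, is not given in the sources used here. An effect of the transduced cells themselves and an effect of lower TRAF2 cannot be told apart.

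Palmitoylation links a long-chain fatty acid, usually palmitate, to a cysteine of a protein through a thioester bond, which anchors the protein to a membrane. Unlike most lipid modifications it is reversible. ZDHHC enzymes, named after the letters of their active site motif, take palmitate from palmitoyl-CoA and pass it to the substrate, mostly in the endoplasmic reticulum, the Golgi apparatus and at the plasma membrane. Some of them need a partner: GOLGA7, also called GCP16, binds and stabilises ZDHHC9, and this complex palmitoylates HRAS and NRAS at the Golgi. GOLGA7 and its relative GOLGA7B have also been described as partners of ZDHHC5. Thioesterases such as LYPLA1 and LYPLA2 in the cytosol, the membrane-bound ABHD17 enzymes and PPT1 in the lysosome take the fatty acid off. In the GO terms that accompany the table, all 24 ZDHHC genes carried protein-cysteine S-palmitoyltransferase activity, and 8 of the 9 thioesterases carried palmitoyl-(protein) hydrolase activity. The term palmitoyltransferase complex was carried by 3 members, GOLGA7, GOLGA7B and ZDHHC9.

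RNA was measured as FPKM, fragments scaled to gene length and sequencing depth. Levels of different genes can thus be compared only as far as the lengths used hold for the RNA of these cells. These were, for example, 2275 bases for GOLGA7 and 12729 bases for ZDHHC2, which had more reads than GOLGA7 in each sh-NC sample. Orders, sums and ratios of levels between genes rest on these lengths. Between 34315233 and 37165301 reads per sample stood behind the values, and the read number of each gene could be recovered from its FPKM. The difference between sh-TRAF2 and sh-NC was fitted by limma on log2(FPKM + 0.1), over the 11870 genes whose mean reached 0.5 FPKM. A gene is called where its Benjamini-Hochberg adjusted p, over all genes tested, was under 0.05. Fold changes given as log2 are on that scale, which understates those of low genes. TRAF2 itself stood at 15.1, 18.4 and 15.3 FPKM in sh-NC and at 3.26, 3.22 and 3.33 FPKM in sh-TRAF2, a log2 fold change of -2.27 (SE 0.0791, limma, adjusted p = 1.16e-06). Of the markers of the line, VIM, SOX2, CD44 and NES were detected at more than 4 FPKM in every sample. VIM ran from 1207.8 to 1284.5 FPKM in sh-NC and from 1556.6 to 1606.2 FPKM in sh-TRAF2, and NES from 4.82 to 5.88 and from 11.4 to 11.8 FPKM, both without overlap. CD44 went the other way, from 186.9 to 191.6 FPKM in sh-NC and from 176.7 to 182.7 FPKM in sh-TRAF2, also without overlap. SOX2 was only slightly higher in sh-TRAF2, from 24.1 to 26.4 FPKM and from 26.6 to 28.7 FPKM. The sum over the markers of the line, mostly VIM, ran from 1427.3 to 1502.8 FPKM in sh-NC and from 1777.0 to 1823.1 FPKM in sh-TRAF2. PTPRZ1 and S100B stayed under 0.2 FPKM, and GFAP was between 0.334 and 1.62 FPKM. CHI3L1, also on the list of the line, was not among the deposited genes. On the lists for microglia, endothelium, neurons, oligodendrocytes and epithelium, PTPRC, PECAM1, RBFOX3, MOG and EPCAM stayed under 0.02 FPKM. Other genes of these lists were higher, such as SNAP25 with up to 0.703 FPKM and KRT8 with up to 1.35 FPKM. CD68, on the list for microglia and macrophages, was between 14.9 and 17.6 FPKM in all 6 samples, and the sum of that list ran from 15.9 to 16.8 FPKM in sh-NC and from 15.1 to 17.7 FPKM in sh-TRAF2. The summed levels of 4 neuronal markers, nearly all SYT1 and TUBB3, ran from 36.5 to 39.1 FPKM in sh-NC and from 30.8 to 31.2 FPKM in sh-TRAF2. These genes differed in opposite directions. SYT1 ran from 23.9 to 27 FPKM in sh-NC and from 13.4 to 14.4 FPKM in sh-TRAF2, and TUBB3 from 11.8 to 12.4 and from 16.3 to 17.2 FPKM. The sum of 4 epithelial markers, mostly KRT18, ran from 17.1 to 19.3 FPKM in sh-NC and from 27.8 to 28.8 FPKM in sh-TRAF2. The part of any of these markers in the results was not tested.

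The hairpin targets are shown because they define the sh-TRAF2 group, and because 7 bases of the first also occur in the 3′UTRs of some members. The study lists 2 targets in TRAF2 for its hairpins, and does not say which of them the sequenced cells carried. Both lie in coding exons of TRAF2 on the plus strand of GRCh38, at chr9:136916579-136916599 (sh-TRAF2#1) and chr9:136920480-136920500 (sh-TRAF2#2). Capitals mark bases 10 to 16 of the first target, counted from its 5′ end.
sh-TRAF2#1 target: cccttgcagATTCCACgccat
sh-TRAF2#2 target: ctggaccaagacaagattgaa

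The heptamer ATTCCAC was searched on the transcript strand in the longest 3′UTR of each gene, from GENCODE release 29 (GRCh38). It was picked by an earlier scan of these same data, in which its carriers were lower in sh-TRAF2, so its occurrence here is no independent support for anything. It lay in the 3′UTR of 5 of the 29 tested members (17.2%) and of 1247 of the 10822 tested genes with a 3′UTR (11.5%). The 5 members were GOLGA7, ZDHHC21, ZDHHC3, ZDHHC23 and ABHD10, each with 1 site. Their log2 fold changes were -1.47, -0.43, -0.21, -0.03 and 0.40, in that order. Of these carriers, GOLGA7, ZDHHC21 and ZDHHC3 were called lower, where 20.9% of all genes tested were called lower. GOLGA7 is the gene by whose fall the set was chosen, and ZDHHC3 lost its call when some single samples were left out. Nothing is thus read from these calls. The heptamer is followed by an A in GOLGA7, ZDHHC21 and ZDHHC3, by a C in ZDHHC23 and by a T in ABHD10. The sh-TRAF2#1 target has a G there. The longer motif ATTCCACA lay in 4.68% of all tested genes with a 3′UTR and in 10.3% of the tested members. The latter share is 3 members and includes GOLGA7, by whose fall the set was chosen, so nothing is read from it. The heptamer was absent from the 3′UTRs of 7 of the 10 members called lower. Whether these sites have a part in the lower RNA of their genes was not tested. The sites of 4 of the 5 carriers are shown in windows of 29 bases, without that of GOLGA7, from 5′ to 3′ on the transcript strand, with the heptamer in capitals. On GRCh38 the windows lie at chr9:14614555-14614583 on the minus strand (ZDHHC21), chr3:44917159-44917187 on the minus strand (ZDHHC3), chr3:113961576-113961604 on the plus strand (ZDHHC23) and chr3:111993225-111993253 on the plus strand (ABHD10).
ZDHHC21 3′UTR site: aattctagaatATTCCACagtacagtata
ZDHHC3 3′UTR site: aatgagcccccATTCCACagacactggag
ZDHHC23 3′UTR site: acgtgctgcttATTCCACctcagccacat
ABHD10 3′UTR site: catcctctgtgATTCCACtggcggaggat

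GOLGA7 lies on the plus strand of chromosome 8, from 41490396 to 41510980 in GENCODE release 29 (GRCh38). It carried the change by which the set was chosen. Its level was 44.6, 41.8 and 42.9 FPKM in sh-NC and 15.6, 15.6 and 15.3 FPKM in sh-TRAF2. The sh-TRAF2 samples lay close together and far below the lowest sh-NC sample. The mean fell from 43.1 ± 1.45 to 15.5 ± 0.181 FPKM (SD, n = 3 each), 64.0% lower, a log2 fold change of -1.47 (SE 0.0410). These values rested on 3617, 3400 and 3626 reads in sh-NC and on 1238, 1221 and 1223 reads in sh-TRAF2. GOLGA7 ranked 14 of 11870 genes from the lowest log2 fold change. As in all values from bulk RNA, fewer cells expressing the gene and less RNA per cell cannot be told apart. By level it was in place 1477 of the tested genes in sh-NC and in place 3724 in sh-TRAF2.

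GOLGA7B, its relative, was close to the limit of detection and below the filter. It was at 0.152, 0.135 and 0.114 FPKM in sh-NC and at 0.197, 0.119 and 0.137 FPKM in sh-TRAF2, from 28 to 47 reads per sample. The groups overlapped. The sum of the accessory proteins was thus almost entirely GOLGA7 in both groups.

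ZDHHC9, the catalytic partner of GOLGA7, was not called. It was at 18.0, 17.9 and 19.4 FPKM in sh-NC and at 18.9, 18.1 and 19.0 FPKM in sh-TRAF2. The groups overlapped, and the log2 fold change was 0.02 (SE 0.0477), on at least 3508 reads in every sample. In sh-NC the RNA of GOLGA7 stood at 2.48, 2.33 and 2.21 times that of ZDHHC9. In sh-TRAF2 this ratio was 0.829, 0.863 and 0.807, so by FPKM, with the gene lengths used, the order of the partners was reversed in all 3 samples. The ratio of GOLGA7 to ZDHHC5 went from 1.72 ± 0.0821 to 0.702 ± 0.0254 (SD, n = 3 each), and was likewise below 1 in every sh-TRAF2 sample. Both ratios mostly restate the fall of GOLGA7, by which the set was chosen, so nothing further is read from them.

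**Figure D1:**
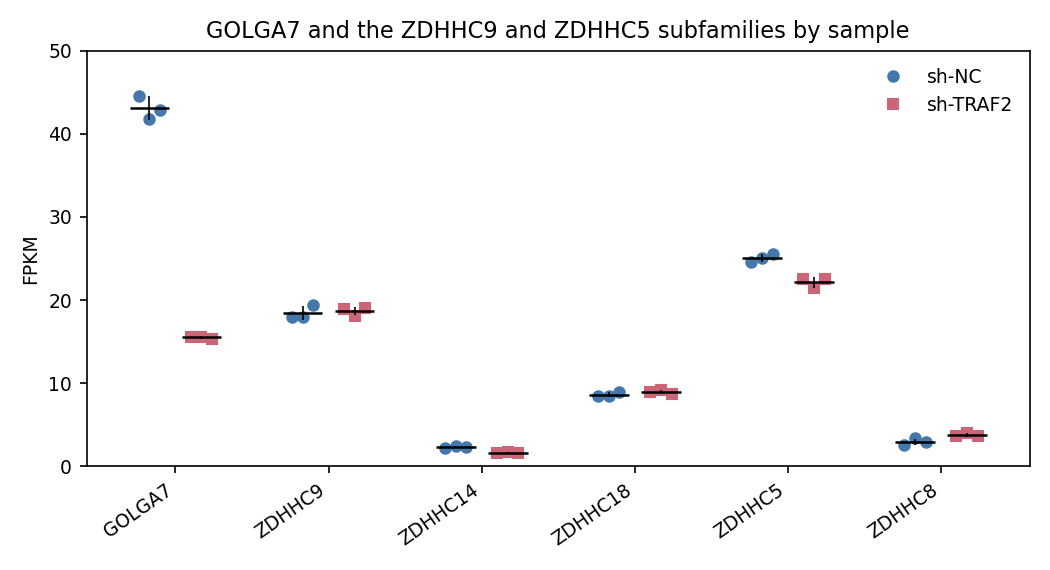
FPKM of GOLGA7, of ZDHHC9 with its close relatives ZDHHC14 and ZDHHC18, and of ZDHHC5 with its close relative ZDHHC8, in each of 3 sh-NC (circles) and 3 sh-TRAF2 (squares) samples, with the mean (horizontal line) and SD (vertical line). GOLGA7 lies above 41 FPKM in sh-NC and below 16 FPKM in sh-TRAF2, while ZDHHC9 stays between 17.9 and 19.4 FPKM in all 6 samples.

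The nearest relatives of ZDHHC9 differed from each other. ZDHHC14 was at 2.16, 2.38 and 2.25 FPKM in sh-NC and at 1.63, 1.69 and 1.53 FPKM in sh-TRAF2. The groups did not overlap, and its log2 fold change of -0.46 (SE 0.0881) was the lowest of the tested acyltransferases. ZDHHC18 was at 8.40, 8.41 and 8.93 FPKM against 8.87, 9.13 and 8.67 FPKM. Its groups overlapped, with a log2 fold change of 0.05 (SE 0.0512).

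ZDHHC5, an enzyme of the plasma membrane, and its close relative ZDHHC8 were called in opposite directions. ZDHHC5, the acyltransferase with the highest RNA level, was at 24.6, 25.1 and 25.5 FPKM in sh-NC and at 22.5, 21.4 and 22.5 FPKM in sh-TRAF2. Every sh-TRAF2 sample was below every sh-NC sample, but the step was small, 11.7% of the sh-NC mean (log2 fold change -0.18, SE 0.0409). ZDHHC8 was at 2.59, 3.34 and 2.89 FPKM in sh-NC and at 3.59, 4.02 and 3.59 FPKM in sh-TRAF2, a log2 fold change of 0.34 (SE 0.101). Its groups were apart by less than the spread within sh-NC, and it was not called when sh-NC replicate 1, sh-NC replicate 3 or sh-TRAF2 replicate 2 was left out.

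Of the 24 acyltransferases, 19 passed the filter and 5 did not. Among the 19, 7 were called lower and 2 higher, and 10 were not called. Their median log2 fold change was -0.12, with 14 of 19 below 0, against a median of 0.02 over all genes tested, of which 5628 were below 0. Over all 35 members, 29 were tested, of which 10 were called lower and 4 higher. The background of this contrast is high: 44.6% of all genes tested were called, 20.9% lower and 23.7% higher. The members' count stood beside it at 48.3%. The groups did not overlap for 17 of the 29 members (58.6%) and for 55.5% of all genes tested. Since the rule used this contrast, nothing is read from these shares. With the further condition of an absolute log2 fold change above 1, GOLGA7 was the only member called, lower, where 0.733% of the genes tested were called lower and 0.986% higher.

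**Figure D2:**
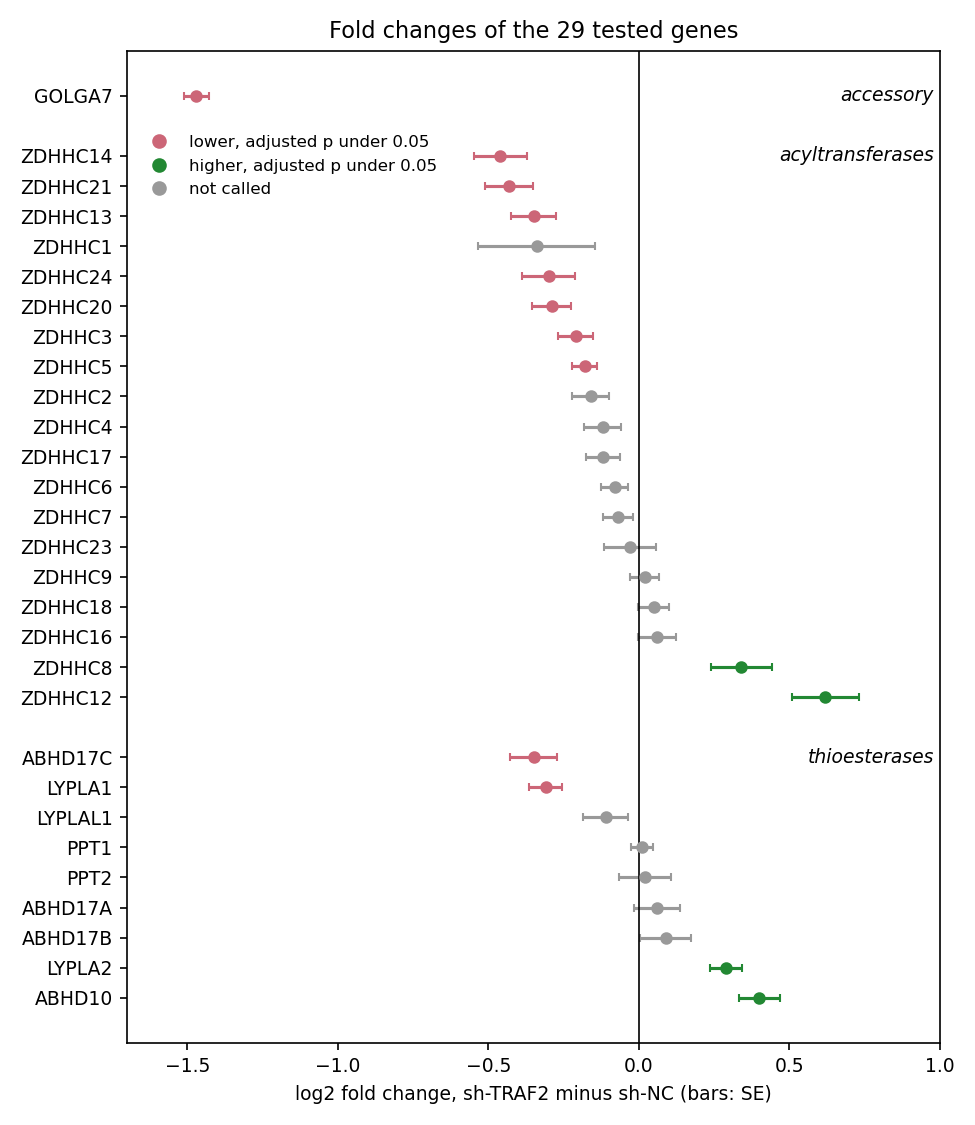
Log2 fold change (sh-TRAF2 minus sh-NC, on log2(FPKM + 0.1)) of the 29 tested members, by class, with its SE as a bar and the call by colour. GOLGA7 at -1.47 stands apart from all others, which run from -0.46 (ZDHHC14) to 0.62 (ZDHHC12).

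ZDHHC12, an acyltransferase of the endoplasmic reticulum and Golgi, was the member with the largest increase. It was at 5.64, 5.45 and 4.99 FPKM in sh-NC and at 6.87, 8.89 and 9.26 FPKM in sh-TRAF2, 55.6% higher in the mean. The sh-TRAF2 samples spread over a wider range than the sh-NC samples, yet all lay above them, and the log2 fold change was 0.62 (SE 0.110). Of all genes tested, 95.5% had a lower fold change. It had at most 440 reads in a sample, and 1.93% of its exon bases are shared with PKN3 on the other strand.

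Behind ZDHHC14, the lowest acyltransferases were ZDHHC21, which acts on kinases of the Src family, and ZDHHC13, which has ankyrin repeats. ZDHHC21 was at 4.29, 4.24 and 4.72 FPKM in sh-NC and at 3.37, 2.97 and 3.39 FPKM in sh-TRAF2 (log2 fold change -0.43, SE 0.0796). ZDHHC13 was at 9.67, 9.10 and 9.90 FPKM against 7.30, 6.88 and 8.29 FPKM (log2 fold change -0.35, SE 0.0748). Their means were 26.5% and 21.6% lower, and neither overlapped between the groups. The ratio of ZDHHC12 to ZDHHC13 was 0.583, 0.599 and 0.504 in sh-NC and 0.942, 1.29 and 1.12 in sh-TRAF2. Both genes were named for their fold changes, so nothing is read from this shift.

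ZDHHC24 and ZDHHC1 completed the 5 lowest values. ZDHHC24 was at 2.64, 2.72 and 2.55 FPKM in sh-NC and at 2.05, 2.34 and 1.98 FPKM in sh-TRAF2, a log2 fold change of -0.30 (SE 0.0885). It was called with all samples but not without sh-NC replicate 1, sh-NC replicate 2, sh-TRAF2 replicate 1 or sh-TRAF2 replicate 3, and 12.1% of its exon bases overlap BBS1 on the other strand. ZDHHC1, known for its link to the STING pathway, was at 0.498, 0.645 and 0.745 FPKM in sh-NC and at 0.530, 0.455 and 0.435 FPKM in sh-TRAF2. The groups overlapped, the log2 fold change was -0.34 (SE 0.195), and the gene passed the filter through its sh-NC level alone, since its sh-TRAF2 mean was 0.473 FPKM.

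The acyltransferases with the highest levels beside ZDHHC5 and ZDHHC9 were ZDHHC4, ZDHHC6 and ZDHHC7, and none of these 3 was called. ZDHHC4 was at 19.2, 21.1 and 20.4 FPKM in sh-NC and at 17.7, 20.1 and 18.3 FPKM in sh-TRAF2, with overlapping groups. ZDHHC6, an enzyme of the endoplasmic reticulum that works with SELENOK, was at 15.5, 15.3 and 15.6 FPKM against 15.2, 14.1 and 14.7 FPKM, just without overlap. ZDHHC7, a Golgi enzyme with many substrates, was at 12.0, 12.2 and 12.5 FPKM against 11.3, 12.3 and 11.5 FPKM. Their log2 fold changes were -0.12, -0.08 and -0.07, with SEs of 0.0610, 0.0451 and 0.0505.

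Only 5 tested acyltransferases were above 0, and ZDHHC16 was the remaining one of these. It was at 8.99, 8.33 and 8.48 FPKM in sh-NC and at 8.56, 8.71 and 9.73 FPKM in sh-TRAF2 (log2 fold change 0.06, SE 0.0641), with overlapping groups. The other tested acyltransferases are named here because their values were seen. ZDHHC20, which palmitoylates EGFR, went from 9.90 ± 0.680 to 8.06 ± 0.297 FPKM (SD, n = 3 each) and was called lower, with a log2 fold change of -0.29 (SE 0.0634). ZDHHC3, the close relative of ZDHHC7 in the Golgi, went from 5.67 ± 0.267 to 4.88 ± 0.0851 FPKM and was called lower at -0.21 (SE 0.0592), but not without sh-NC replicate 1, sh-TRAF2 replicate 2 or sh-TRAF2 replicate 3. ZDHHC2, ZDHHC17 and ZDHHC23 had log2 fold changes of -0.16, -0.12 and -0.03 and were not called. ZDHHC2 is close to the threshold, since it was called lower in 5 of the 15 alternative fits.

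The 5 acyltransferases below the filter were ZDHHC11, ZDHHC11B, ZDHHC15, ZDHHC19 and ZDHHC22. ZDHHC11 had the most reads of them, 69, 67 and 42 in sh-NC and 31, 27 and 20 in sh-TRAF2, without overlap between the groups. Its log2 fold change was -1.10 (SE 0.328) in limma-voom on the recovered reads, and its reads could be split with those of its near-identical neighbour copy ZDHHC11B, so the value is uncertain. The other 4 had between 0 and 14 reads in any sample, and ZDHHC19 and ZDHHC22 had no read in the 3 sh-TRAF2 samples and at most 4 reads in a sh-NC sample. At this depth no difference in these 4 genes was detectable.

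Summed over all 24 genes, the acyltransferases came to 167.9, 168.4 and 172.5 FPKM in sh-NC and to 158.4, 159.2 and 161.5 FPKM in sh-TRAF2. The groups did not overlap, and the mean went from 169.6 ± 2.54 to 159.7 ± 1.61 FPKM (SD, n = 3 each). The ratio of GOLGA7, which is not part of that sum, to the sum was 0.254 ± 0.0102 in sh-NC and 0.0973 ± 0.00209 in sh-TRAF2. This ratio, too, mostly restates the fall of GOLGA7.

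The 9 thioesterases all passed the filter, and they showed no common direction. Of them 2 were called lower (ABHD17C, LYPLA1), 2 higher (LYPLA2, ABHD10) and 5 were not called, with a median log2 fold change of 0.02. The share called, 44.4%, was close to the 44.6% of all genes tested, so nothing is read from these counts. Their summed level was 129.9, 138.3 and 132.8 FPKM in sh-NC and 135.6, 138.5 and 134.6 FPKM in sh-TRAF2, with overlapping groups.

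LYPLA1 and LYPLA2, the cytosolic acyl-protein thioesterases, moved in opposite directions from nearly equal levels. LYPLA1 was at 22.4, 24.7 and 24.3 FPKM in sh-NC and at 20.2, 18.7 and 18.7 FPKM in sh-TRAF2, a log2 fold change of -0.31 (SE 0.0537). LYPLA2 was at 21.4, 23.0 and 21.9 FPKM in sh-NC and at 25.6, 28.9 and 27.0 FPKM in sh-TRAF2, a log2 fold change of 0.29 (SE 0.0545). Neither overlapped between the groups. The ratio of LYPLA1 to LYPLA2 was thus 1.05, 1.07 and 1.11 in sh-NC and 0.789, 0.646 and 0.695 in sh-TRAF2, on at least 1753 reads for each gene and sample. LYPLAL1, a related hydrolase, was at 3.40, 3.94 and 3.60 FPKM against 3.44, 3.40 and 3.29 FPKM, with overlapping groups and a log2 fold change of -0.11 (SE 0.0747).

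The ABHD17 enzymes, which sit on membranes and take palmitate off NRAS, also differed from one another. ABHD17C was at 3.62, 4.10 and 4.06 FPKM in sh-NC and at 3.03, 3.23 and 2.91 FPKM in sh-TRAF2, a log2 fold change of -0.35 (SE 0.0779) without overlap. ABHD17A was at 5.37, 5.75 and 6.21 FPKM against 5.54, 6.24 and 6.36 FPKM, and ABHD17B at 2.25, 2.11 and 2.14 FPKM against 2.32, 2.47 and 2.15 FPKM. Both of these overlapped between the groups, with log2 fold changes of 0.06 (SE 0.0774) and 0.09 (SE 0.0849).

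ABHD10, a thioesterase of the mitochondrion, had the highest log2 fold change of the thioesterases, 0.40 (SE 0.0680). It was at 7.20, 7.86 and 7.64 FPKM in sh-NC and at 10.9, 9.98 and 9.29 FPKM in sh-TRAF2. All sh-TRAF2 samples lay above all sh-NC samples, 32.7% higher in the mean.

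The lysosomal enzymes were not called. PPT1, whose loss causes an infantile form of neuronal ceroid lipofuscinosis, had the highest RNA level of all members. It was at 61.9, 64.6 and 60.4 FPKM in sh-NC and at 62.3, 63.0 and 62.6 FPKM in sh-TRAF2, on at least 7646 reads per sample (log2 fold change 0.01, SE 0.0365). PPT2 was at 2.36, 2.29 and 2.52 FPKM against 2.30, 2.62 and 2.35 FPKM (log2 fold change 0.02, SE 0.0858). The groups overlapped in both genes. In the annotation, 23.4% of the exon bases of PPT1 overlap CAP1 on the other strand and 49.3% of those of PPT2 belong also to the read-through gene PPT2-EGFL8. The use of strand in counting is not given in the sources used here, so reads of these neighbours cannot be told apart.

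By level in sh-NC, with the gene lengths used, PPT1 came first with 62.3 FPKM and GOLGA7 second with 43.1 FPKM. Each was apart from its neighbours by more than the range of the samples. ZDHHC5 (25.1 FPKM) and LYPLA1 (23.8 FPKM) came next with overlapping ranges, as did LYPLA1 and LYPLA2 (22.1 FPKM), and ZDHHC4 (20.2 FPKM) and ZDHHC9 (18.4 FPKM). The 5 acyltransferases from ZDHHC20 (9.90 FPKM) to ZDHHC18 (8.58 FPKM) each overlapped their neighbours within this stretch. In sh-TRAF2, PPT1 remained first at 62.6 FPKM and LYPLA2 was second at 27.1 FPKM. GOLGA7 was in place 7 there, between ZDHHC9 (18.7 FPKM) and ZDHHC6 (14.7 FPKM), whose ranges it did not overlap.

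**Figure D3:**
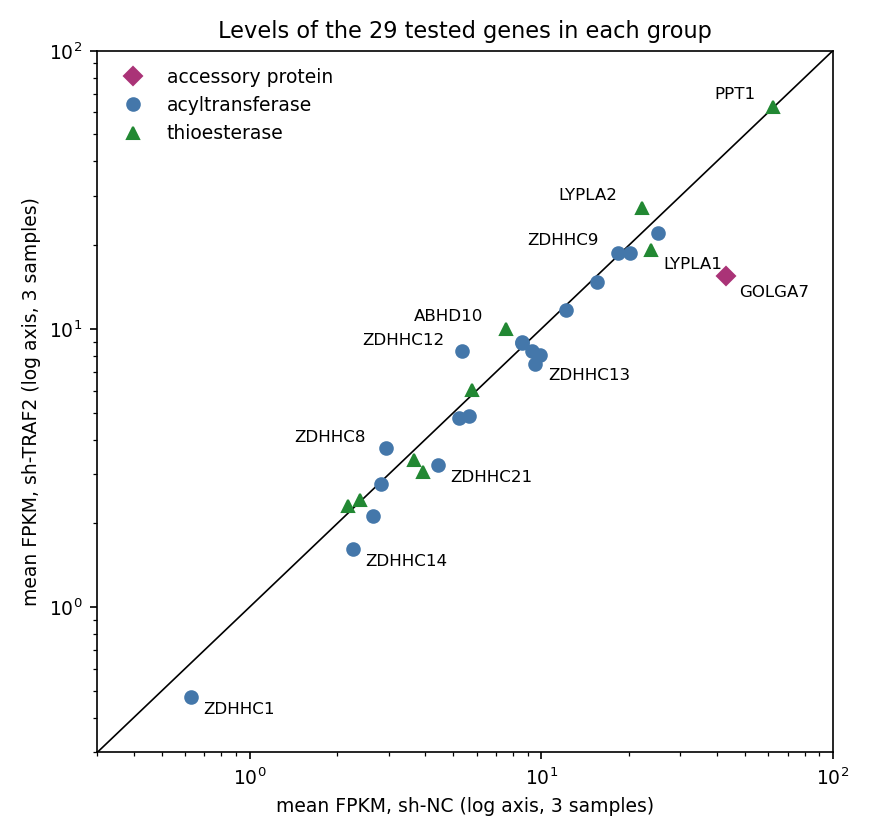
Mean FPKM in sh-NC (horizontal) against sh-TRAF2 (vertical) of the 29 tested members, both on log axes, n = 3 samples each, with the line of equal levels. The members lie along the line from ZDHHC1 at 0.629 FPKM to PPT1 at 62.3 FPKM in sh-NC, and GOLGA7 at 43.1 and 15.5 FPKM lies farthest below it.

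The enzymes were also set beside their substrates, their palmitoyl-CoA supply and the other lipid-attaching enzymes, from fixed lists whose p-values are limma's, adjusted over all genes tested. Among 37 tested palmitoylated proteins, 11 rose and 10 fell. HRAS and NRAS, substrates of the ZDHHC9-GOLGA7 complex, are named after their values were seen. HRAS rose from 29.9 ± 0.494 to 36.1 ± 2.42 FPKM (SD, n = 3 each; log2 fold change 0.27, SE 0.0529, adjusted p = 0.00427), and NRAS was at 86.6 ± 2.95 and 85.0 ± 4.45 FPKM, not called (log2 fold change -0.03, SE 0.0466). TFRC, the transferrin receptor, rose from 77.4 ± 4.10 to 227.3 ± 8.43 FPKM (log2 fold change 1.55, SE 0.0464, adjusted p = 7.95e-07). EGFR fell from 31.8 ± 0.763 to 14.3 ± 0.607 FPKM (log2 fold change -1.14, SE 0.0462, adjusted p = 2.23e-06), and CKAP4, a substrate of ZDHHC2, fell by 0.48 on the log2 scale (SE 0.0399, adjusted p = 5.87e-05).

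Among 10 tested genes for the supply of palmitoyl-CoA and other partners, 4 fell and 2 rose. FASN, the fatty acid synthase, is named after its values were seen. It fell from 15.4 ± 1.72 to 12.6 ± 0.472 FPKM (SD, n = 3 each; log2 fold change -0.28, SE 0.0771, limma, adjusted p = 0.0176). By RT-qPCR, another measure, the study reported no significant effect of TRAF2 knockdown on FASN mRNA. ACLY, which makes cytosolic acetyl-CoA, fell from 54.7 ± 1.83 to 33.5 ± 0.770 FPKM (SD, n = 3 each; log2 fold change -0.71, SE 0.0402, adjusted p = 9.55e-06). ACSL5, an acyl-CoA synthetase that shares exon bases with ZDHHC6 on the other strand, fell by 0.72 on the log2 scale (SE 0.153, adjusted p = 0.00569). Its level was low, from 1.07 ± 0.0433 to 0.615 ± 0.0977 FPKM, near the filter of 0.5 FPKM. DBI, which binds acyl-CoA, rose by 0.21 on the log2 scale (SE 0.0312, adjusted p = 9.65e-04).

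Of 12 tested enzymes that attach or process other protein lipids, 4 fell and 3 rose. ICMT, which methylates prenylated proteins such as RAS, fell from 21.5 ± 1.12 to 13.2 ± 0.163 FPKM (SD, n = 3 each; log2 fold change -0.70, SE 0.0491, adjusted p = 2.53e-05). HHAT, which palmitoylates Hedgehog proteins, fell from 2.47 ± 0.199 to 1.15 ± 0.0162 FPKM (log2 fold change -1.03, SE 0.0963, adjusted p = 9.94e-05). NMT1, an N-myristoyltransferase, rose by 0.41 on the log2 scale (SE 0.0389, adjusted p = 1.07e-04). Of the 17 golgins and other proteins that tether or stack Golgi membranes, 4 rose and 2 fell. On the log2 scale GORASP1 rose by 0.43 (SE 0.0584, adjusted p = 5.96e-04), GOLGA3 rose by 0.31 (SE 0.0590, adjusted p = 0.00342) and CUX1 fell by 0.36 (SE 0.0696, adjusted p = 0.00393). The medians of the lists lay between -0.07 and 0.05, and the shares called between 35.3 and 60.0%, beside the 44.6% of all genes tested.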

How the data were processed

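RNA of U251 cells, 3 sh-NC and 3 sh-TRAF2 samples, was sequenced and processed by a company, and the authors deposited FPKM values per gene. The labels' processing notes name HISAT2, HTSeq, DESeq2 and R 3.2.0. The genome build, the annotation and the use of strand are not given in the sources used here. Groups were taken from the sample labels. Columns of all 6 samples were used.

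Reads were recovered from the FPKM steps, where 100% of the values above 0 came out whole within 0.0001 reads. Totals of 34315233 to 37165301 reads per sample limit the precision of members with few reads. On simulated data 6 of 6 totals were recovered and 99.2% of 2977 genes were exact.

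Values were analysed as log2(FPKM + 0.1) with limma 3.58.1 in R 4.3.3 (eBayes with a trend, two-sided) over the 11870 genes whose mean reached 0.5 FPKM, with Benjamini-Hochberg adjustment. In a test on simulated data with 11870 genes for this comparison, 97% of those changed by a log2 of 1 and 99% of those changed by 2 were called, with 11 unchanged genes called. Only 200 genes were changed there, fewer than were called in the real data. Changes below a log2 of 1, such as those of every called member except GOLGA7, were not simulated. Members and lists were chosen with earlier results of these data known. Named were GOLGA7, GOLGA7B, the ZDHHC9 and ZDHHC5 relatives, the 5 highest and 5 lowest fold changes and the 5 highest levels among the ZDHHC genes, every thioesterase, TRAF2, and the 3 genes of each list with the smallest adjusted p. HRAS, NRAS, FASN and the remaining tested acyltransferases were named after their values were seen. The alternatives were another pseudocount, filter, scaling or fit, limma-voom on the recovered reads with a mean of at least 10, and each sample left out. Gene positions and 3′UTRs came from GENCODE release 29 (GRCh38). Protein sequences were not used here. Python 3.11.15 with numpy 2.4.6, pandas 2.3.3 and matplotlib 3.10.9 was used.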

Additional observations from a re-analysis of the deposited data

How the results depend on the processing

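The fall of GOLGA7 kept its direction in all 15 alternative fits, between -1.50 and -1.42. The lowest size came with a pseudocount of 1 (-1.42), a shift larger than the spread between replicates. No member called in the fit with all samples changed sign. With each sample left out in turn, between 8 and 10 members were called lower and 3 or 4 higher, and the other settings gave 9 to 12 lower and 3 or 4 higher. Without a filter ZDHHC24 and ZDHHC8 were not called. Past both thresholds, limma-voom on the recovered reads called 2 members lower, GOLGA7 and ZDHHC11, which the filter had left out. Over all genes, those thresholds called 46 higher and 41 lower with a pseudocount of 1, and 238 higher and 172 lower with limma-voom. The median of the acyltransferases stayed between -0.15 and -0.11, and that of the thioesterases between 0.00 and 0.06. Deviations of samples with the same replicate number had correlations of -0.0812, 0.0722 and 0.0728, against -0.141 to 0.0673 for different numbers. With 3 samples per group these values cannot tell whether the numbers pair the samples. With the replicate number as a block, 11 members were called lower and 4 higher, ZDHHC2 being added, and GOLGA7 was at -1.47. The depth limits the 6 members below the filter.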
